A study of Mus musculus with 12 samples.

Results

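The genes that encode the proteins of the cytosolic ribosome were followed in whole mouse embryos of 2 mutant lines. Members were chosen by symbol alone, as names that begin with *Rpl* or *Rps* followed by a number and at most 1 letter, the stalk genes *Rplp0* to *Rplp2*, and *Rpsa* and *Rpl22l1*. Of 23420 genes listed, 81 were members, 31 of the small and 50 of the large subunit. Among them *Rps21* and *Rps29* were set apart as outliers, with earlier results of these data known. RNA was sequenced at embryonic day 12.5 (E12.5) from 3 embryos per group, and each embryo gave 1 library.

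In the *Carm1* line (strain C57BL/6), *Carm1* null embryos were homozygous for the *Carm1*tm1Mtb allele, which lacks exons 2 and 3 of a gene for an arginine methyltransferase. In the *Pax3* line (strain mixed), a closed colony, *Pax3* null embryos were homozygous for *Pax3*Sp2H, the Splotch allele of a transcription factor of neural crest and muscle precursors. Both came from intercrosses of heterozygous mice, and each line had its own wild-type embryos. Strain and colony differ between the lines and cannot be told apart from them. The mutations were constitutive and the RNA was of the whole embryo, so fewer cells of a type and less RNA per cell cannot be told apart.

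Each ribosome holds a small subunit, which decodes the message, and a large subunit, which joins amino acids, and each subunit needs nearly every one of its proteins in a single copy. The genes for these proteins are transcribed at high levels in growing tissue, yield short and abundant messages, and are often regulated together through a pyrimidine-rich start of the transcript. Shortage of single members causes selective defects in mice and humans, among them anaemia and altered skeletal patterning.

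Library totals ranged from 17183344 to 23518692 counts. The *Carm1* gene fell in *Carm1* null embryos, with 1237 to 1299 counts against 2542 to 3384 (log2 fold change -0.998, FDR adjusted *P* = 1.2e-15 by edgeR). *Pax3* fell in *Pax3* null embryos, with 426 to 501 counts against 431 to 659 (log2 fold change -0.43, FDR adjusted *P* = 0.0014 by edgeR). Neither check went against a label. Libraries with at least 100 Y-linked counts were *Carm1* wild-type replicate 3, *Pax3* wild-type replicates 2 and 3, and *Pax3* null replicate 3.

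The members with the greatest rise in the *Pax3* line included the shortest coding sequences of the family, and 5 of them are shown for that reason. The sequences are those of GENCODE transcripts on GRCm38, the same build as mm10, written from start to stop codon with both codons in capitals. *Rpl41* lies at chr10:128548114-128549305 (minus strand), *Rpl39* at chrX:37082520-37085402 (minus), *Rps28* at chr17:33819027-33824562 (minus), *Rpl38* at chr11:114668524-114672331 (plus) and *Rps21* at chr2:180257377-180258445 (plus), and each sequence is the joined coding part of the gene's exons.
Rpl41: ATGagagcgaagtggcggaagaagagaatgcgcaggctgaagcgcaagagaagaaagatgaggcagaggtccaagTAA
Rpl39: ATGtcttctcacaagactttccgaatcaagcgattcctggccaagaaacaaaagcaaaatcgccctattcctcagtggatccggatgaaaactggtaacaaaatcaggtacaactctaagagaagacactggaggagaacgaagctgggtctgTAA
Rps28: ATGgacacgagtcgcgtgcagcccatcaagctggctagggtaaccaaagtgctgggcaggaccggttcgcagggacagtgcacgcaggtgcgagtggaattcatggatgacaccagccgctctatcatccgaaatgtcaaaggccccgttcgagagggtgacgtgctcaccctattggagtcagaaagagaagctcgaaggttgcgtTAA
Rpl38: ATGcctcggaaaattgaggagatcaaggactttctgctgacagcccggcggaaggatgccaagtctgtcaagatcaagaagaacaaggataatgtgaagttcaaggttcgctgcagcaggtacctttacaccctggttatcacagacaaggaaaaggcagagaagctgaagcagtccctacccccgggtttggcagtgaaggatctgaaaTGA
Rps21: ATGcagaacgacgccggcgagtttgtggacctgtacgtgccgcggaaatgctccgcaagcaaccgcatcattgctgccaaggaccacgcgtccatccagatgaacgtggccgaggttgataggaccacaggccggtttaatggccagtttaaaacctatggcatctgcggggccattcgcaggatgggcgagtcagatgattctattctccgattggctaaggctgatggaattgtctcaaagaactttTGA
They span 78 nucleotides in *Rpl41*, 156 in *Rpl39*, 210 in *Rps28*, 213 in *Rpl38* and 252 in *Rps21*, against a median of 456 over the 81 members.

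Not every member could be measured. The test, edgeR's quasi-likelihood test, was run on genes that passed its filter on low counts, with *P* values adjusted over all genes tested and a threshold of 0.05. The filter left 76 members in the *Carm1* line and 77 in the *Pax3* line, and 4 passed in neither. *Rpl26*, a core protein of the large subunit, was listed at 0 in all 12 libraries, which allows up to 3 counts in each. The paralogs of the large subunit with restricted use were also below the filter, *Rpl3l* with 0 to 5 counts per library, *Rpl10l* with 0 to 2 and *Rpl39l* with 2 to 15. *Rpl30*, another core protein, held 1 to 14 counts and passed only in the *Pax3* line. *Rpl34* held 65 to 158 counts and *Rps27* 23 to 53.

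These low values stood in contrast to the rest of the family. Per kilobase of the principal transcript, the levels of *Rpl34* and *Rps27* were 8.69 and 5.27 CPM (counts per 1000000 counts of TMM-scaled library size), whereas *Rplp1*, the highest, had 1667, followed by *Rpl41* with 1568, *Rps14* with 1294, *Rpl23a* with 1248 and *Rps2* with 1227. Pseudogene loci that carry a member's symbol numbered 6 for *Rpl26*, 9 for *Rpl30*, 2 for *Rpl34* and 1 for *Rps27*. For the highest members they numbered 1 for *Rplp1*, 0 for *Rpl41*, 0 for *Rps14*, 14 for *Rpl23a* and 11 for *Rps2*. Copies under other names were not counted. How reads that align to several places were counted is not given in the sources used here, so the values of members with near-identical copies are uncertain.

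In the *Carm1* line, the ribosomal protein genes differed little between null and wild-type embryos. *Rps21*, of the small subunit, and *Rpl12*, at the base of the ribosomal stalk, were higher in *Carm1* null embryos, and no member was called lower by edgeR or by DESeq2 (1, *Rps23*, at an unadjusted *P* under 0.05 in edgeR). The 2 of 76 members called (2.63% higher, 0% lower) compare with 13.3% of all 15811 genes tested, of which 5.49% were higher and 7.83% lower. The median log2 fold change was -0.029 over the members (quartiles -0.056 and 0.0043) and 0.0018 over all other genes tested.

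*Rps21* stood at 476, 482 and 435 CPM in the 3 *Carm1* null embryos and at 362, 363 and 430 in wild-type. The lowest null library was only slightly above the highest wild-type library, replicate 3. Null embryos had a mean of 464 ± 25.7 and wild-type embryos of 385 ± 38.7 (SD, n = 3 each), and the estimate was 0.27 (SE 0.059, FDR adjusted *P* = 0.0046 by edgeR). *Rpl12* stood at 702, 672 and 720 CPM in *Carm1* null embryos and at 556, 600 and 638 in wild-type embryos. Its log2 fold change was 0.22 (SE 0.050, FDR adjusted *P* = 0.0023 by edgeR), again with no overlap. These were the only members whose null libraries all lay above the wild-type libraries, 2 of 76, against 14.2% of all genes tested.

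*Rps29*, a zinc-binding protein of the small subunit, was at 400, 347 and 397 CPM in *Carm1* null and at 324, 330 and 397 in wild-type embryos. The groups overlapped, and the log2 fold change was 0.12 (95% interval -0.051 to 0.30, FDR adjusted *P* = 0.45 by edgeR). Without wild-type replicate 3, which held 4804 Y-linked counts where the other 5 libraries of this line held 2 to 5, *Rps29* was called at 0.22 and *Rpl39* at 0.14 beside *Rps21* at 0.36 and *Rpl12* at 0.27, 4 members higher in all. Without wild-type replicate 1, *Rps23*, *Rpl5* and *Rpl22* were called lower, at -0.16, -0.13 and -0.13.

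Members chosen for known roles showed small values in this line. The stalk proteins *Rplp0*, *Rplp1* and *Rplp2*, which recruit elongation factors, had log2 fold changes of 0.0042, -0.042 and -0.025. *Rps19*, the gene most often mutated in Diamond-Blackfan anaemia, had -0.053, and *Rpl38*, known for its part in translation of Hox messages, had 0.028. *Rpl11*, which with *Rpl5* restrains Mdm2, had -0.044, and *Rpl24*, mutated in Belly spot and tail mice, had -0.0073. None of these passed the test. The most negative estimate among all members, -0.28 for *Rps27*, carried an SE of 0.28 and rested on fewer than 50 counts in each library.

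In the *Pax3* line, by contrast, most of the family was higher in null embryos. Of 77 members tested, 51 were called higher (66.2%) and none lower by edgeR, where 24.5% of all 15724 genes tested were called, 14% higher and 10.5% lower. The median log2 fold change was 0.43 (quartiles 0.15 and 0.68) over the members and -0.0041 over all other genes tested. At an unadjusted *P* under 0.05, edgeR put 1 member lower, and DESeq2 called 1 lower after adjustment, *Rpl6* in both. Both subunits took part, with 22 of 31 small subunit genes higher (median 0.43) and 29 of 46 large subunit genes (median 0.42). Without *Rps21* and *Rps29*, 49 of 75 were higher and the median was 0.43. All 3 null libraries lay above all 3 wild-type libraries in 57 of 77 members, against 20.7% of all genes tested. *Rpl6* alone had its null libraries below, where 18.9% of all genes did.

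*Rps29* showed the widest gap. It stood at 60.9, 103 and 77.3 CPM in *Pax3* wild-type embryos and at 454, 492 and 496 in *Pax3* null embryos. The highest wild-type library was far below the lowest null library. Wild-type embryos had a mean of 80.5 ± 21.4 and null embryos of 481 ± 23.0 (SD, n = 3 each), and the estimate was 2.58 (SE 0.22, FDR adjusted *P* = 0.0026 by edgeR). *Rps28*, a small subunit protein near the exit of the message, stood at 76.3, 101 and 95.3 CPM in wild-type and at 363, 410 and 382 in null embryos (log2 fold change 2.08, SE 0.091). *Rpl38* stood at 66.1, 97.1 and 83.6 in wild-type and at 294, 304 and 328 in null embryos (1.91, SE 0.15). In each of these genes wild-type replicate 1 was the lowest library of the line.

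*Rps21* rose as well, from 147, 187 and 170 CPM in *Pax3* wild-type embryos to 452, 414 and 438 in *Pax3* null embryos. The log2 fold change was 1.38 (SE 0.070, FDR adjusted *P* = 1.5e-12 by edgeR), and *Rps21* was the only member called in both lines. *Rpl39*, which lines the exit tunnel of the large subunit, stood at 81.5, 109 and 98.0 in wild-type and at 246, 268 and 284 in null embryos (1.47, SE 0.097). *Rpl41*, the shortest protein of the family, stood at 312, 416 and 391 in wild-type and at 883, 876 and 933 in null embryos (1.27, SE 0.083). The groups did not overlap in any of the 3 genes.

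**Figure D1:**
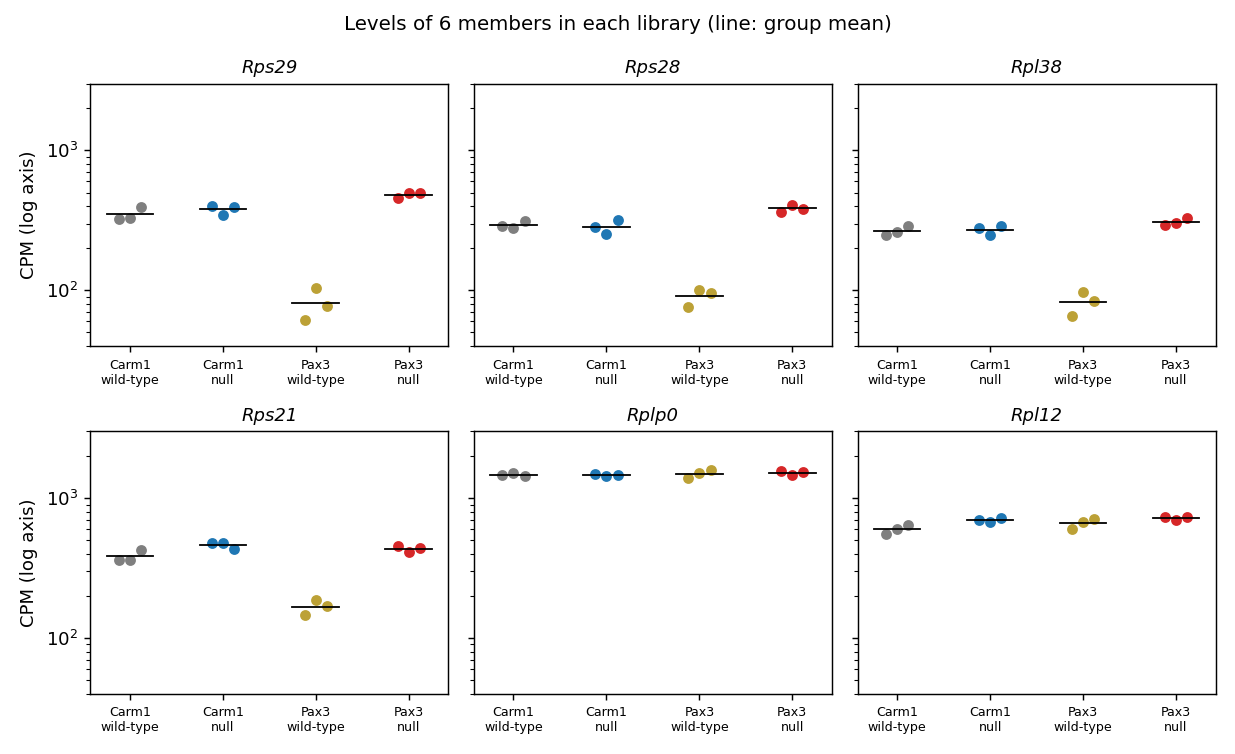
Level of 6 members in each library, in CPM on a log axis, with 1 point per embryo and a line at the mean of 3. *Rps29*, *Rps28*, *Rpl38* and *Rps21* were low in the 3 *Pax3* wild-type libraries (60.9 to 187 CPM) and above 240 CPM in the other 9, whereas *Rplp0* stayed between 1386 and 1598 CPM and *Rpl12* between 556 and 737 CPM in all 12.

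In all, 10 members were called at a log2 fold change of at least 1, against 91 of all genes tested (0.579%). Besides the 6 above they were *Rpl37* (1.25, SE 0.062), *Rpl37a* (1.13, SE 0.099), *Rps19* (1.03, SE 0.13) and *Rpl22l1* (1.28, SE 0.26). Their coding sequences measured 78 to 438 nucleotides. *Rpl22l1*, a paralog of *Rpl22* that can take its place, varied most, with 30.4, 60.0 and 47.0 CPM in wild-type and 111, 108 and 113 in null embryos (FDR adjusted *P* = 0.035 by edgeR). Leaving out wild-type replicate 3 or any 1 of the null libraries ended its call, with adjusted *P* values of 0.10 to 0.11. *Rpl22* itself had a log2 fold change of 0.34 (SE 0.062, FDR adjusted *P* = 2.1e-04).

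Not every member shared in the rise. The stalk was split, since *Rplp1* (0.81, SE 0.11) and *Rplp2* (0.69, SE 0.098) rose, whereas *Rplp0*, to which they bind, had 0.024 (95% interval -0.11 to 0.16). *Rpl11* rose by 0.60 (SE 0.078), while its partner *Rpl5* had -0.0033 (95% interval -0.14 to 0.13). The genes that rose had the shorter coding sequences, 345 nucleotides in *Rplp1* and 348 in *Rplp2* against 954 in *Rplp0*. *Rpl11* had 537 against 894 in *Rpl5*. *Rps27a*, made as a fusion with ubiquitin, rose by 0.50 (SE 0.073) and *Rpl24* by 0.33 (SE 0.063). In the fit that removed each library's trend with longest-transcript length and GC content, *Rpl24* had 0.059 and was not called (FDR adjusted *P* = 0.45 by edgeR). *Rpsa*, also known as the laminin receptor, had 0.057 (95% interval -0.073 to 0.19), and *Rps27l*, a paralog of *Rps27*, rose by 0.55 (SE 0.063).

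The genes called with the smallest rise were *Rpl14* (0.24), *Rpl10* (0.26), *Rpl36a* (0.26), *Rps10* (0.31) and *Rps13* (0.32). *Rpl14* stood at 543, 648 and 669 CPM in wild-type and at 757, 697 and 739 in null embryos, with little room between the groups. Leaving out 1 library ended the call of *Rpl14* for wild-type replicate 1 and null replicates 1 and 3, that of *Rpl10* for null replicates 1 and 3, and that of *Rpl36a* for wild-type replicate 1 and null replicate 3. *Rpl6* had the lowest estimate, -0.16 (95% interval -0.29 to -0.027, FDR adjusted *P* = 0.086 by edgeR), from 933, 995 and 1035 CPM in wild-type and 909, 855 and 890 in null embryos. It was also called lower in a fit of all 12 libraries and without wild-type replicate 1.

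**Figure D2:**
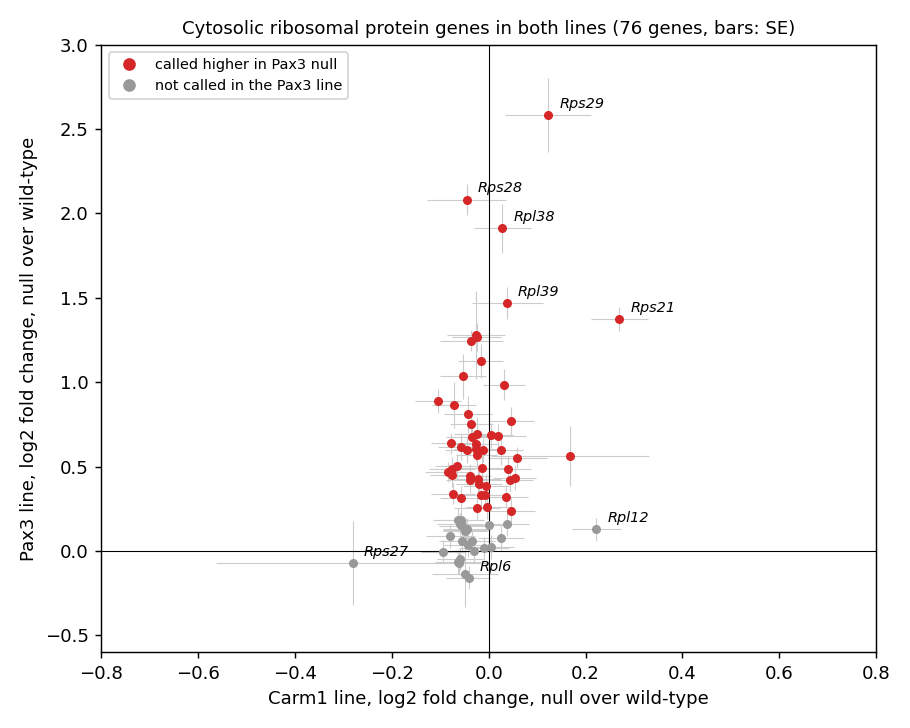
Log2 fold change of null over wild-type of the 76 members tested in both lines, with the *Carm1* line on the horizontal and the *Pax3* line on the vertical axis and SE as bars. Points in the *Carm1* line lie close to 0 (median -0.029), whereas in the *Pax3* line they reach 2.58, and *Rps21* is called in both.

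The fold changes of the *Pax3* line went with gene length, in the ribosomal protein genes and in all other genes. Among members, those with a coding sequence under 400 nucleotides had a median log2 fold change of 0.73, with 21 of 26 called higher. From 400 to 599 nucleotides it was 0.47 (21 of 30), from 600 to 899 it was 0.20 (9 of 18), and from 900 to 1499 it was 0.024 (0 of 3). The other genes of the same 4 classes had medians of 0.24, 0.14, 0.072 and 0.014, with 45.2%, 30%, 20.6% and 13% called higher. Other genes with coding sequences of 3000 nucleotides and over had a median of -0.11, and 25.1% of them were called lower. The members' medians were above those of the other genes in each of the 4 classes of coding length, but not in every class of principal transcript length. There the 21 members from 900 to 1499 nucleotides had a median of 0.16 against 0.18 in other genes, and the 8 members from 1500 to 2999 had 0.036 against 0.041. The 25 members from 600 to 899 nucleotides had 0.49 against 0.33, and the 16 from 400 to 599 had 0.58 against 0.47.

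Spearman's rho between coding length and log2 fold change was -0.64 across the 77 members and -0.33 across 14805 other genes in the *Pax3* line. The corresponding rho in the *Carm1* line was -0.094 across 76 members and -0.033 across 14861 other genes. These values describe genes of the same libraries, which are not independent replicates. Whether wild-type and null libraries were prepared together is not given in the sources used here, and the part of library preparation in the trend was not tested.

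**Figure D3:**
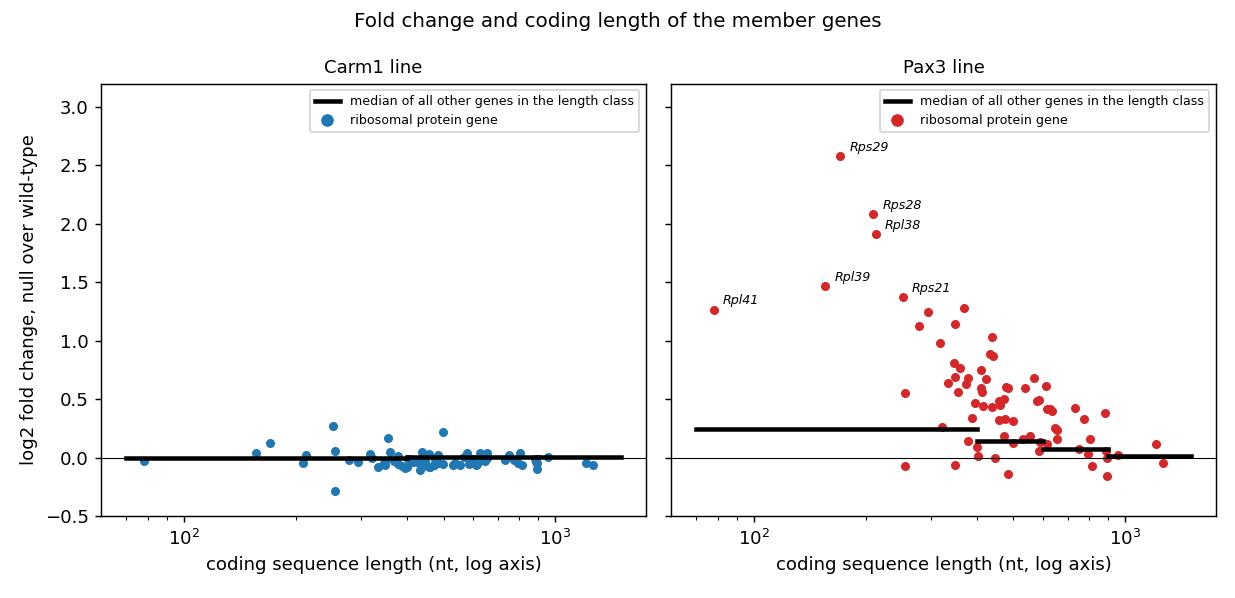
Log2 fold change of null over wild-type of each member against the length of its coding sequence (log axis), in the *Carm1* line on the left and the *Pax3* line on the right. The thick bars are medians of all other genes in 4 length classes, which in the *Pax3* line fall from 0.24 under 400 nucleotides to 0.014 from 900 to 1499, below most of the short members.

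The share of members called higher in the *Pax3* line, 66.2%, can be set beside that of other genes of similar length over the whole range of the family. Of 6388 other genes whose longest transcript fell within the central range of the members (499 to 2989 nucleotides, their 5th and 95th percentiles), 22.5% were higher, 4.1% lower, and the median was 0.10. Of 3674 other genes of similar coding length (210 to 894 nucleotides), 27.1% were higher and the median was 0.11. Of 3964 other genes with a principal transcript of similar length (394 to 1938 nucleotides), 29.1% were higher and the median was 0.16. Only 46 other genes had both a principal transcript of similar length and a level at or above the members' lower quartile, and of these 37% were higher, with a median of 0.11, against 66.2% and 0.43 for the members. For the *Carm1* line the corresponding shares of genes called higher were 5.34%, 5.28%, 5.17% and 8.7%, with medians of 0.0078, 0.0069, 0.014 and -0.021.

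When each library's trend with the length and GC content of the longest transcript was removed by offsets, the *Pax3* rise was smaller but remained in most members. Then 41 members were called higher and 7 lower of 77, with a median of 0.24, where 9.22% of all genes were higher and 7.31% lower. The 7 lower were *Rpl6* (-0.33), *Rps26* (-0.27), *Rps6* (-0.26), *Rpl19* (-0.20), *Rplp0* (-0.16), *Rps4x* (-0.16) and *Rpl4* (-0.15). *Rps29*, *Rps28*, *Rpl38*, *Rpl39* and *Rps21* stayed called in that fit, *Rps29* at 2.26 and *Rps28* at 1.96. *Rpl14* and *Rps10* turned to -0.027 and -0.079 and were no longer called, as were *Rpl10* (0.072) and *Rpl36a* (0.029). Coding length was not part of the offsets, and the trend with it largely stayed. Across the 77 members, Spearman's rho of log2 fold change in that fit was -0.60 with coding length. It was -0.34 with principal transcript length and -0.032 with the length of the longest transcript.

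Summed over the 81 members, the ribosomal protein genes held 3.53%, 3.94% and 4.13% of all counts in *Pax3* wild-type embryos and 5.02%, 4.85% and 5.09% in *Pax3* null embryos. The groups did not overlap, and their means were 3.87% ± 0.31 and 4.99% ± 0.12 (SD, n = 3 each). The share in the *Carm1* line was 4.44%, 4.22% and 4.25% in null and 4.09%, 4.36% and 4.61% in wild-type embryos, with overlapping groups. Exact binomial intervals of these shares reach at most 0.0095 percentage points to either side and cover counting error only.

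A second measure moved with the *Pax3* groups. *Rn45s*, the precursor of ribosomal RNA, held 0.76%, 1.70% and 1.12% of counts in *Pax3* wild-type libraries and 0.375%, 0.374% and 0.381% in *Pax3* null libraries. In the *Carm1* line it held 3.30% to 6.40%, with overlapping groups. The RNA was selected for poly(A) tails, which this precursor lacks. Its part in the values of the ribosomal protein genes was not tested.

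**Figure D4:**
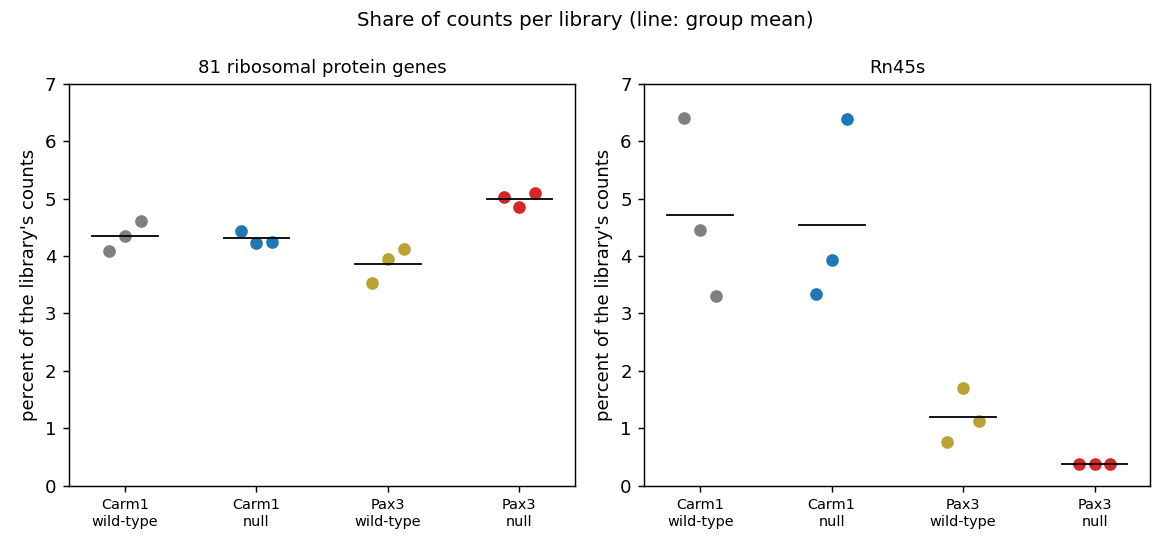
Percent of each library's counts on the 81 ribosomal protein genes (left) and on *Rn45s* (right), with 1 point per embryo and a line at the mean of 3. In the *Pax3* line the members' share is 3.53% to 4.13% in wild-type and 4.85% to 5.09% in null embryos, while *Rn45s* is lower in null embryos, at 0.374% to 0.381% against 0.76% to 1.70%.

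Some tissue markers also moved in the *Pax3* line, where 14% of all genes tested were higher and 10.5% lower. Of 10 skeletal muscle markers tested, 7 were lower in *Pax3* null embryos, with a summed level of 176 to 204 CPM against 325 to 383. Of 12 neural progenitor markers 6 were higher and 1 lower, with summed levels of 1781 to 1902 against 1768 to 1886, and of 12 cardiac markers 6 were higher and 1 lower (523 to 618 against 537 to 589). Of 12 neuron markers 5 were lower and 1 higher, and their summed level was 1794 to 1909 CPM in null against 2012 to 2141 in wild-type embryos, with no overlap. Of 15 hepatocyte markers 1 was higher and 3 lower, and their summed level was 1054 to 1142 against 1246 to 1523, again with no overlap. Of 13 erythroid markers 1 was higher, with overlapping sums of 8384 to 10738 in null against 6497 to 9213 in wild-type embryos. Among *Carm1* null embryos 9 of 10 skeletal muscle, 13 of 15 hepatocyte, 10 of 13 erythroid, 7 of 12 cardiac and 6 of 12 neuron markers were lower. There 9 of 12 neural progenitor markers and 1 erythroid marker were higher, where 7.83% of all genes tested were lower and 5.49% higher. Summed levels of the skeletal muscle, hepatocyte, cardiac and neuron lists were lower in *Carm1* null embryos, with no overlap. The neural progenitor sum was higher, at 1856 to 1983 CPM in null against 1539 to 1588 in wild-type embryos, also with no overlap. The erythroid sums overlapped, at 7907 to 9233 CPM in null against 5843 to 9932 in wild-type embryos. The part of tissue composition in the values of the ribosomal protein genes was not tested.

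The response of the ribosomal protein genes differed between the lines when the difference itself was tested. In the fit of all 12 libraries the effect of the *Carm1* genotype minus that of the *Pax3* genotype was negative and called in 51 of 76 members and positive in none by edgeR, where 19.1% of all 16292 genes tested were called, 8.65% positive and 10.5% negative. No member was positive at an unadjusted *P* under 0.05 either, nor by DESeq2. The median difference was -0.42. Among the smallest *P* values were those of *Rpl37* (-1.27, SE 0.094), *Rps23* (-0.98, SE 0.089), *Rpl41* (-1.28, SE 0.10), *Rpl35a* (-0.70, SE 0.078) and *Rpl18* (-0.67, SE 0.084), with FDR adjusted *P* values between 3.8e-09 and 1.0e-06. *Rps29* differed by -2.45 (SE 0.24, FDR adjusted *P* = 2.3e-04) and *Rps21* by -1.10 (SE 0.11, FDR adjusted *P* = 5.4e-06). *Rpl12*, called in the *Carm1* line alone, was not shown to differ (0.10, 95% interval -0.058 to 0.27).

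With all 12 libraries scaled together, both *Pax3* groups lay outside the *Carm1* line for many members. The 3 *Pax3* wild-type libraries were below all other 9 libraries in 36 of 76 members (47.4%), against 6.08% of all genes tested. The 3 *Pax3* null libraries were above the other 9 in 37 members (48.7%), against 8.67% of all genes. The median log2 difference of *Pax3* wild-type from *Carm1* wild-type was -0.22 over the members and -0.016 over other genes, and that of *Pax3* null from *Carm1* null was 0.19 over the members and -0.0034 over other genes. These medians are on the log2(CPM + 1) scale and were not tested.

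The members with the widest gap within the *Pax3* line were also low against the other line. *Rps29* was 2.17 log2 units lower in *Pax3* wild-type than in *Carm1* wild-type embryos, *Rpl38* 1.73 and *Rps28* 1.73, whereas *Rplp0* differed by -0.0030. Between the null groups the same genes differed by 0.29, 0.14 and 0.39.

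A single member of 76 differed by at least 1 log2 unit between the lines in both genotypes, where 1.06% of all genes did, and it was singled out after its values were seen. *Rpl29*, a basic protein of the large subunit, at chr9:106429454-106431568 (GRCm38, plus strand), held 7398 to 10236 counts in the 6 libraries of the *Carm1* line and 311 to 724 in the 6 of the *Pax3* line. Its level in *Pax3* wild-type embryos was 4.44% of that in *Carm1* wild-type embryos, and that in *Pax3* null was 6.58% of that in *Carm1* null embryos. No other of the 16292 genes was at least as far below in both. Within the *Pax3* line *Rpl29* followed the family, from 19.4, 18.0 and 23.2 CPM in wild-type to 29.7, 33.0 and 29.4 in null embryos (log2 fold change 0.60, SE 0.092). *Rps15a* was likewise lower in the *Pax3* line, by 1.03 log2 units between the wild-type and 0.49 between the null groups.

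Genes that work with the ribosome did not all move like its proteins in the *Pax3* line. Of 6 other ribosomal protein genes, whose symbols follow another pattern, 3 were higher, among them *Fau* (0.67), made as a fusion with a ubiquitin-like protein, and *Rpl36al* (0.29). Of 40 translation factors 7 were higher and 9 lower (median -0.058), with *Eef1a1*, the main elongation factor that delivers tRNA, at -0.31 (SE 0.059, FDR adjusted *P* = 3.7e-04). Of 52 ribosome biogenesis factors 9 were higher and 8 lower (median -0.039). Of 24 p53 targets 4 were higher, among them *Bax* (0.60), and 4 lower, among them *Cdkn1a* (-0.34). Over all genes tested in this line, 14% were higher and 10.5% lower. The shares were 17.5% and 22.5% in translation factors, 17.3% and 15.4% in biogenesis factors, and 16.7% each in p53 targets.

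Mitochondrial ribosomal protein genes, which are short and form a family of their own, had 38 of 76 members higher and 2 lower, with a median of 0.21, about midway between all genes and the cytosolic family. Of 10 snoRNA host genes 9 were higher (median 0.38), led by *Snhg8* at 1.43 (SE 0.084). In the *Carm1* line 5.49% of all genes tested were higher and 7.83% lower. Of the same lists, 1 of 6 other ribosomal protein genes, 1 of 52 biogenesis factors and 1 of 10 snoRNA host genes were lower. Higher were 1 of 40 translation factors and 1 of 76 mitochondrial ribosomal protein genes. Of 24 p53 targets 2 were higher and 2 lower, 8.33% each.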

How the data were processed

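PolyA RNA of whole E12.5 embryos was sequenced as paired 150 bp reads. The authors aligned the reads to mm10 with STAR and counted those overlapping exons per gene by featureCounts, and the deposited values are raw counts per gene and library, without normalization or pooling. Tool versions, the strand setting and the handling of reads with several alignments are not given in the sources used here.

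Groups and replicate numbers came from the sample labels. Each line was tested by the robust quasi-likelihood test of edgeR (version 4.0.16, under R 4.3.3) after TMM and filterByExpr, with Benjamini-Hochberg adjustment over all genes tested and a threshold of 0.05, and the difference between lines as an interaction over 12 libraries. The test was first checked on simulated counts. CPM values use TMM-scaled library sizes, within a line unless stated. Intervals given for log2 fold changes are 95% normal intervals from the SE. With 3 embryos against 3, the smallest *P* of an exact permutation test is 0.1. The edgeR *P* values weigh the difference of group means against the spread between embryos, estimated with help from other genes. The sample labels give no litter, so embryos that shared one cannot be recognized.

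The members and lists were chosen with earlier results of these data known. Named genes are *Rps21* and *Rps29*, the 5 highest and 5 lowest called members per line, members called in both lines, the 6 with the smallest adjusted *P* for the difference, paralogs, members of known role, and the 5 highest and 5 lowest by level, and *Rpl6*, *Rpl29* and others outside this rule were named after their values were seen. The annotation (GENCODE vM21, GRCm38) matched 21777 symbols as written and 1276 by an older symbol, and 367 had no match. The principal transcript is the one with a RefSeq match and the APPRIS principal label.

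Alternatives were RLE, upper-quartile scaling, TMM factors from other genes only, no filter, a minimum of 10 counts in every library, DESeq2 (version 1.42.0), one fit of 12 libraries, the replicate number as a block, offsets for length and GC content (splines with 5 degrees of freedom), a term for Y-linked counts and leaving out each library in turn. The length and GC content in the offsets were those of the longest transcript. The comparisons by coding length, principal transcript and level, and the levels over 12 libraries, were added after the data had been seen. Promoter and protein sequences were not used here, and some values and sequences are not reported here.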

Additional observations from a re-analysis of the deposited data

Results flagged for a closer look

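For 25 of the named members, the difference between the lines (log2 fold change of *Carm1* null over wild-type minus that of *Pax3* null over wild-type) passed edgeR's interaction test over 12 libraries, and each is listed with its value in log2 units. Differences beyond 1 were those of *Rps29* (-2.45), *Rps28* (-2.12), *Rpl38* (-1.87), *Rpl39* (-1.42), *Rpl22l1* (-1.30), *Rpl41* (-1.28), *Rpl37* (-1.27), *Rps21* (-1.10) and *Rps19* (-1.08). Smaller differences were those of *Rps23* (-0.98), *Rplp1* (-0.84), *Rplp2* (-0.71), *Rpl35a* (-0.70), *Rpl18* (-0.67), *Rpl11* (-0.63), *Rps27a* (-0.56), *Rps14* (-0.55), *Rps27l* (-0.48), *Rpl22* (-0.40), *Rps2* (-0.38), *Rps10* (-0.36), *Rpl24* (-0.33), *Rps13* (-0.27), *Rpl10* (-0.27) and *Rpl36a* (-0.25). All were negative, as were all 51 called among the 76 members tested, against 10.5% of all genes. Strain, colony and line cannot be told apart.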

How the results depend on the processing

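In the *Pax3* line, 41 to 59 members were called higher and the median lay between 0.24 and 0.50 over 16 alternatives, both lowest with length and GC offsets, which called 7 members lower and gave a median of 0.24. DESeq2 and the fit of all 12 libraries each called 1 lower (*Rpl6*). For the difference between lines, 39 to 55 members were called negative, and the offsets gave 2 positive (*Rps26*, *Rpl6*) and a median of -0.25. With offsets, *Rpl14* (-0.027) and *Rps10* (-0.079) changed sign in the *Pax3* line, and *Rpl10*, *Rpl36a* and *Rpl24* lost their call. The term for Y-linked counts called 4 members higher in the *Carm1* line, among them *Rps29* (0.22). In that line wild-type replicate 3 alone had at least 100 Y-linked counts. The term therefore acts like leaving out that library, which called the same 4 members, and is no separate check. The cause of the other changes was not tested.

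Leaving out 1 library gave 2 to 4 members higher and 0 to 3 lower in the *Carm1* line, and 46 to 56 higher and 0 to 1 lower in the *Pax3* line, where the lower one was *Rpl6* without wild-type replicate 1 and *Rpl21* (-0.34) without null replicate 3. The lowest median of the *Pax3* line was 0.35, when wild-type replicate 1 was left out, and the highest 0.50, when wild-type replicate 3 was. The share of counts in *Pax3* null over wild-type libraries ranged from 1.24 to 1.34.

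Same-numbered embryos did not deviate together in the *Carm1* line (*r* from -0.062 to -0.0007). In the *Pax3* line their *r* was 0.19, -0.080 and 0.27, against -0.38 to 0.26 for other pairs, so pairing there cannot be decided. With the replicate number as a block, 2 members were called higher in the *Carm1* line and 52 in the *Pax3* line, and *Rpl22l1* lost its call (adjusted *P* = 0.11). The share of other genes of similar length called higher depended on the match, at 22.5% by longest transcript, 29.1% by principal transcript and 37% by principal transcript and level in the *Pax3* line, and at 5.34%, 5.17% and 8.7% in the *Carm1* line, the last of 46 genes. *Rpl26*, *Rpl30*, *Rpl3l*, *Rpl10l* and *Rpl39l* held at most 15 counts in any library, too few for a precise comparison, and the cause of these low counts was not tested.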
